A study of Mus musculus with 24 samples.

Results

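The miR-192, miR-194 and miR-215 family was followed in mouse liver RNA that was intact, degraded in the tissue, depleted of small RNAs or degraded with RNase. Members were chosen by name, as every mouse miRNA on the array called miR-192, miR-194 or miR-215 with either arm, which gave 7 of 1881 miRNAs. They are mmu-miR-192-5p, mmu-miR-192-3p, mmu-miR-194-5p, mmu-miR-194-1-3p, mmu-miR-194-2-3p, mmu-miR-215-5p and mmu-miR-215-3p. Of these, 3 were detected on at least 5 of 24 arrays, as were 631 of the 1881 miRNAs. mmu-miR-192-3p met this filter through fresh RNA alone, so tests of RNA preparations are given for the 2 detected on every array, mmu-miR-192-5p and mmu-miR-194-5p.

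The livers of 3 male mice, numbered 7, 10 and 9 in the labels, were each divided into pieces, and every mouse gave 1 array to each of 8 groups. The labels give neither strain nor age for these animals. For 4 groups, RNA that includes small RNAs was isolated with the miRNeasy Kit from pieces kept for 0 h or 96 h at room temperature, each with or without DNase digestion. A further piece, kept for 0 h, was prepared with the RNeasy Kit and DNase, which largely leaves out small RNAs, and is called depleted RNA. Depleted RNA was hybridized untreated or after 30 min with 0 U, 0.026 U or 0.67 U RNase, and the incubated RNA was purified again with the miRNeasy Kit without DNase. The study used these preparations to find out which array signals can come from fragments of longer RNA or of DNA. No cell type was purified, so fewer cells of a type and less RNA per cell cannot be told apart. Each mouse had its own slide, scanned once, so that differences between mice and between slides or scans cannot be told apart.

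MicroRNAs are cut from a hairpin precursor, whose upstream arm gives the 5p and whose downstream arm the 3p miRNA, and they repress mRNAs through pairing of the seed, bases 2 to 8. miR-192 and miR-194 are abundant in liver, kidney and intestine, where liver-enriched nuclear factors drive their clusters, and the family is known for being induced by p53. miR-215 is a close relative of miR-192 that is best known from intestine and kidney.

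The mature sequences of the 5p members and of the detected 3p member, from RefSeq (GRCm38.p6), show how alike these members are. Whether the probes tell them apart was not tested. Seeds are in capitals.
mmu-miR-192-5p: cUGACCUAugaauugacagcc
mmu-miR-215-5p: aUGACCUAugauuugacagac
mmu-miR-194-5p: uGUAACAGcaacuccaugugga
mmu-miR-192-3p: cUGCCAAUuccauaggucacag

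All 7 members were matched in the RefSeq table. mmu-miR-192-5p and mmu-miR-215-5p were the only 2 of its 1679 mature mouse miRNAs with the seed UGACCUA, and they were identical at 18 of 21 positions. Written with the base of mmu-miR-192-5p first and positions counted from its 5′ end, they differed by C1A, A12U and C20A. The seed of mmu-miR-194-5p, GUAACAG, was held by no other mature miRNA in the table. The same mature mmu-miR-194-5p is made from 2 hairpins, so its signal cannot be assigned to either.

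The hairpins lie in 2 pairs on the plus strand. On chromosome 19 the Mir194-2 hairpin (chr19:6264643-6264728) precedes the Mir192 hairpin (chr19:6264844-6264932) by 115 bases. On chromosome 1 the Mir194-1 hairpin (chr1:185313319-185313385) precedes the Mir215 hairpin (chr1:185313581-185313692) by 195 bases. The Mir192 hairpin is shown because both of its arms were detected in fresh liver. Its arms, miR-192-5p and then miR-192-3p, are in capitals.
Mir192: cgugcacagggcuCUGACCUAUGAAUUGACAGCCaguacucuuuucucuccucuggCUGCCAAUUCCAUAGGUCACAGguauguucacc

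The array carried 30 spots for each member, 15 for each of 2 probes. A signal is the total fluorescence of a miRNA after background subtraction, in intensity units, set to a common spot size. The scanner software had scaled the signals of 8 arrays, among them all 6 arrays at 96 h, by 1.32 to 1.41 through a measured spot size. No spot was saturated. Signals of different miRNAs rest on different probes, and are not set against each other as levels.

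RNA integrity, given in the labels as the RNA integrity number (RIN), was 8.8 to 9.0 in fresh RNA and 2.3 to 2.5 after 96 h. In depleted RNA it was 9.2 to 9.4 untreated, 9.0 to 9.2 at 0 U, 6.0 to 7.0 at 0.026 U and 2.4 to 2.9 at 0.67 U. Between 273 and 342 miRNAs were detected in fresh RNA and 582 to 707 after 96 h. The number for depleted RNA was 186 to 238 untreated or at 0 U and 255 to 408 with RNase. For mouse 9 the labels of both RNase arrays contradict each other, and the arrays were grouped by their descriptions, which the RIN values follow. The hepatocyte markers miR-122-5p and miR-122-3p were detected on all fresh arrays, and 0 of 4 muscle and brain markers were.

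The 5p miRNAs of miR-192 and miR-194 were detected in every preparation. mmu-miR-192-5p, the leading arm of Mir192, was detected on 24 of 24 arrays, and so was mmu-miR-194-5p. mmu-miR-192-3p, its partner from the same hairpin, was detected on 6 arrays, which were the 6 fresh ones. mmu-miR-194-2-3p was detected on 1 array, the fresh array without DNase of mouse 10. The arrays gave no detected signal for mmu-miR-215-5p, mmu-miR-215-3p or mmu-miR-194-1-3p, each at 0 of 24.

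The seed relatives thus stood at 24 and 0 arrays. Before the step to a common spot size, the total signal of mmu-miR-215-5p lay between -0.777 and 1.35 intensity units, while the lowest detected signal of any miRNA on an array lay between 0.672 and 1.62. mmu-miR-215-3p lay between -1.55 and -0.0520 and mmu-miR-194-1-3p between -0.820 and 0.147. These 3 members were not detected and have only a bound. At a common spot size mmu-miR-194-2-3p reached 0.919 to 1.68 in fresh DNase-treated RNA and 1.53 to 2.41 in fresh RNA without DNase. With 1 detected array it was neither ranked nor tested.

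**Figure D1:**
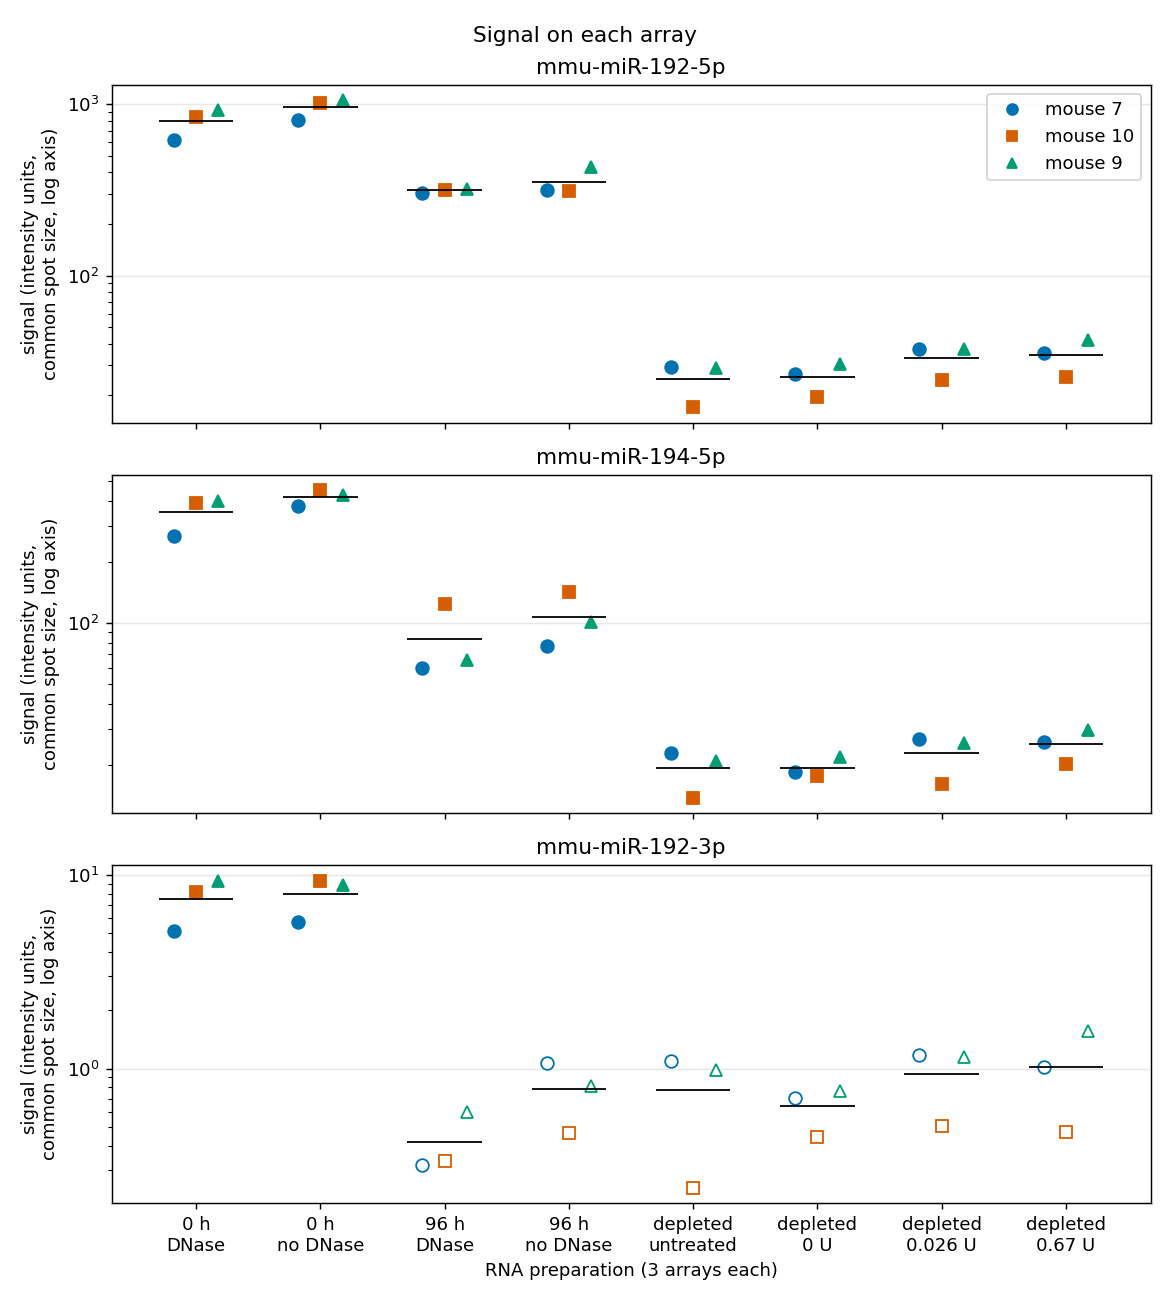
Signal of the 3 members that passed the filter on each of the 24 arrays, in intensity units at a common spot size on a log axis, by RNA preparation, with a symbol for each mouse, open symbols where the miRNA was not detected and a line at the mean of 3 arrays. mmu-miR-192-5p and mmu-miR-194-5p fell into 3 separate levels (fresh, 96 h and depleted), while mmu-miR-192-3p was detected only on the 6 fresh arrays.

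mmu-miR-192-5p was highest in fresh RNA. In mice 7, 10 and 9 its signal was 619, 842 and 926 intensity units with DNase and 812, 1010 and 1053 without. After 96 h it was 304, 317 and 319 with DNase and 314, 310 and 428 without. All 6 arrays at 96 h were below all 6 fresh arrays.

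In depleted RNA mmu-miR-192-5p remained detectable at a low signal. It was 29.4, 17.0 and 28.8 intensity units in untreated RNA of mice 7, 10 and 9, and 26.6, 19.6 and 30.4 at 0 U. With RNase it was 37.3, 24.7 and 37.2 at 0.026 U and 35.5, 25.5 and 42.4 at 0.67 U. These 12 arrays lay below every array of RNA with small RNAs, and the 4 depleted groups overlapped each other.

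The groups of mmu-miR-192-5p therefore ranked, by mean signal ± SD over 3 arrays, as fresh without DNase (958 ± 129), fresh with DNase (796 ± 159), 96 h without DNase (351 ± 66.6) and 96 h with DNase (314 ± 8.06). They were followed by 0.67 U (34.5 ± 8.48), 0.026 U (33.1 ± 7.24), 0 U (25.6 ± 5.48) and untreated depleted RNA (25.1 ± 6.99). Neighbours in this order overlapped, except fresh with DNase against 96 h without DNase and 96 h with DNase against 0.67 U.

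mmu-miR-194-5p had the same 3 levels. Its signal in mice 7, 10 and 9 was 269, 389 and 401 intensity units in fresh RNA with DNase and 378, 450 and 429 without. After 96 h it was 60.1, 124 and 65.7 with DNase and 77.4, 142 and 101 without. Mouse 10 was the highest of the 3 mice in both 96 h groups, while for mmu-miR-192-5p it was not set apart there with DNase and was the lowest without.

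In depleted RNA mmu-miR-194-5p gave 22.9, 13.8 and 20.8 intensity units untreated and 18.5, 17.6 and 21.9 at 0 U. With RNase it gave 26.8, 16.0 and 25.7 at 0.026 U and 25.9, 20.1 and 29.6 at 0.67 U. The means ± SD over 3 arrays ran from 419 ± 37.0 (fresh without DNase) through 353 ± 73.0 (fresh with DNase), 107 ± 32.5 (96 h without DNase) and 83.2 ± 35.3 (96 h with DNase) to 25.2 ± 4.79 (0.67 U), 22.8 ± 5.91 (0.026 U), 19.3 ± 2.24 (0 U) and 19.2 ± 4.80 (untreated). As for mmu-miR-192-5p, the fresh, 96 h and depleted arrays did not overlap, and neighbours within each of these 3 kinds did.

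mmu-miR-192-3p gave signals close to the detection limit. Its signal was 5.16, 8.14 and 9.29 intensity units in fresh RNA with DNase and 5.74, 9.35 and 8.88 without. On the 18 other arrays, where it was not detected, it lay between 0.242 and 1.57. At a common spot size without normalization between arrays, its measured signal was at least 6.85-fold lower after 96 h than fresh with DNase, and at least 7.02-fold lower without. In untreated depleted RNA it was at least 6.80-fold lower than in fresh DNase-treated RNA. Each bound takes the lowest detected signal of any miRNA on the dim array, or the member's own where higher. That value is not a detection limit. On the fresh DNase-treated array of mouse 10, mmu-miR-194-2-3p was undetected at 1.68, where the lowest detected signal was 0.878. The bounds thus hold for measured signals only. Because it passed the filter through the fresh arrays alone, no test of these differences is given.

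The first comparison asked how storage of the tissue affected the family. Both 5p members were lower after 96 h than at 0 h, in all 3 mice, with and without DNase. Without normalization between arrays, mmu-miR-192-5p kept 40.5% ± 7.73 (SD, n = 3) of its fresh signal with DNase and 36.7% ± 5.24 without, and mmu-miR-194-5p kept 23.5% ± 7.78 and 25.1% ± 5.68.

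Changes between groups were tested after variance stabilizing normalization (vsn) of the arrays, as differences on its glog2 scale, which is close to log2 for bright miRNAs. A miRNA was called at a Benjamini-Hochberg adjusted p under 0.05 over all 631 miRNAs in limma with a change of at least 1. With DNase, mmu-miR-192-5p fell by 2.74 (SE 0.33, adjusted p = 2.22e-07) and mmu-miR-194-5p fell by 3.54 (SE 0.37, adjusted p = 3.26e-08). Without DNase the changes were -2.73 (SE 0.33, adjusted p = 2.58e-07) and -3.28 (SE 0.37, adjusted p = 1.02e-07). Thus 2 of 2 5p members were called lower with and without DNase, against 21.6% and 23.1% of all 631 tested miRNAs.

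Within each mouse, the DNase-treated change of mmu-miR-192-5p was -2.50, -2.30 and -3.41 on the glog2 scale in mice 7, 10 and 9. That of mmu-miR-194-5p was -3.62, -2.54 and -4.47. All 6 values were negative, and mouse 10 had the smallest change of both.

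The size of the fall depended on the scaling. Under vsn the median change of all 631 miRNAs was 2.36 with DNase and 2.10 without. Over 10 ways of scaling, the change of mmu-miR-192-5p with DNase ran from -4.54 to -0.86 and that of mmu-miR-194-5p from -5.34 to -1.68, while the median of all tested miRNAs ran from 0.14 to 3.46. Relative to that median, mmu-miR-192-5p lay at -5.26 to -3.51 and mmu-miR-194-5p at -5.90 to -3.08. With no normalization the fall of mmu-miR-192-5p was under the required 1, at -0.86 (adjusted p = 0.0144), and at a common spot size it was -1.32 (adjusted p = 0.000317).

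**Figure D2:**
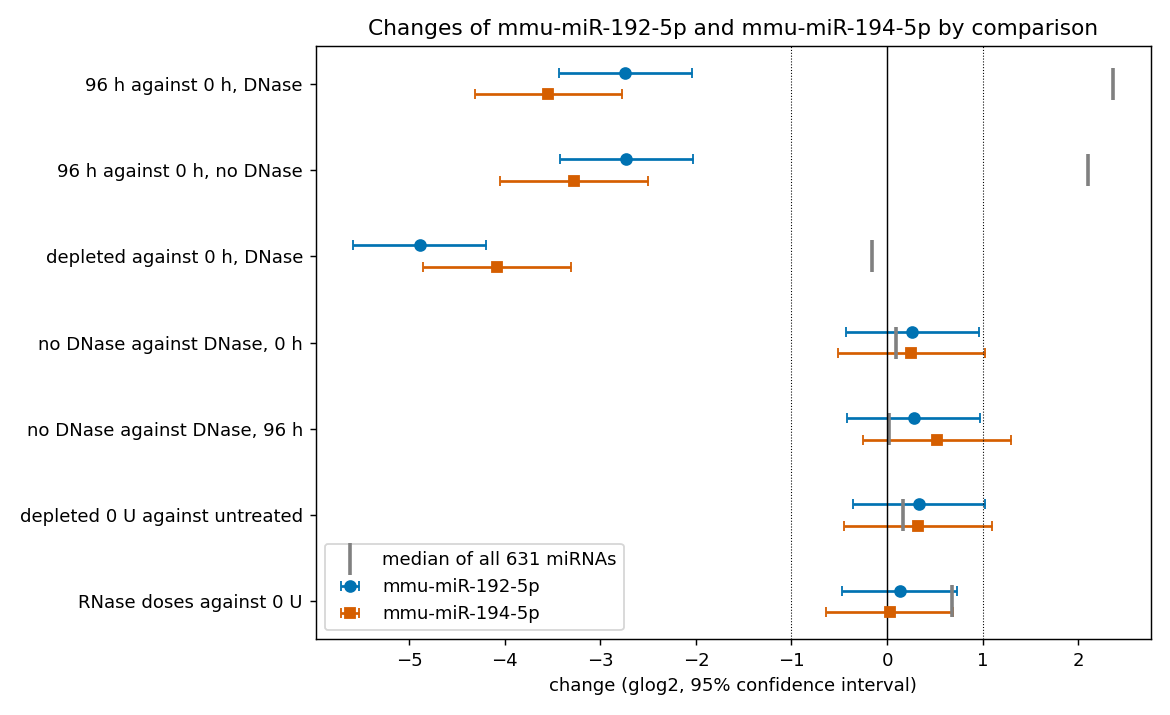
Changes of mmu-miR-192-5p and mmu-miR-194-5p on the glog2 scale (horizontal axis) in 7 comparisons, with 95% confidence intervals from limma over 3 arrays a group, the median change of all 631 tested miRNAs as a grey bar and dotted lines at a change of 1 either way. Both members lay beyond -2 for storage and depletion, and their intervals held 0 in the other 4 comparisons.

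Leaving out DNase digestion addressed whether DNA contributed to these signals. In fresh RNA mmu-miR-192-5p was 131%, 120% and 114% of its DNase-treated signal in mice 7, 10 and 9, and mmu-miR-194-5p was 141%, 116% and 107%. The glog2 difference was 0.27 (95% confidence interval -0.43 to 0.96) for mmu-miR-192-5p and 0.25 (-0.52 to 1.02) for mmu-miR-194-5p. The difference for mmu-miR-192-3p was 0.09 (-0.60 to 0.78). In limma 0 of these 3 members were called, against 0% of all tested miRNAs. At an unadjusted p under 0.05 there were 29 of 631 miRNAs and no member. The 3 adjusted p-values were 0.991.

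At 96 h the difference was 0.28 (-0.41 to 0.97) for mmu-miR-192-5p and 0.52 (-0.25 to 1.29) for mmu-miR-194-5p. Neither 5p member was called, against 10.8% of all tested miRNAs. Mouse 10 differed in sign from the other mice, with -0.50 for mmu-miR-192-5p and -0.28 for mmu-miR-194-5p against 0.29 and 0.60 in mouse 7 and 1.05 and 1.24 in mouse 9. Without mouse 9 the difference of mmu-miR-192-5p was -0.11. The effect of storage itself was compared between RNA with and without DNase, and the difference of the changes was 0.01 (SE 0.47) for mmu-miR-192-5p and 0.27 (SE 0.52) for mmu-miR-194-5p. Neither was called for this difference (lower adjusted p = 0.889), against 1.11% of all tested miRNAs.

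The depleted RNA showed how much signal was left when small RNAs were largely left out. mmu-miR-192-5p kept 4.75%, 2.02% and 3.11% of its fresh DNase-treated signal in mice 7, 10 and 9, and mmu-miR-194-5p kept 8.54%, 3.54% and 5.20%. After vsn mmu-miR-192-5p fell by 4.89 (SE 0.33, adjusted p = 2.26e-10) and mmu-miR-194-5p fell by 4.08 (SE 0.37, adjusted p = 1.62e-08), and each fell in 3 of 3 mice. Both 5p members were called lower, against 24.4% of all tested miRNAs. The median of all tested miRNAs was -0.16. Over the 10 scalings the change ran from -5.01 to -2.46 for mmu-miR-192-5p and from -4.21 to -1.45 for mmu-miR-194-5p.

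The signal at 96 h was next set against that of untreated depleted RNA, both with DNase. Without normalization mmu-miR-192-5p was 1035%, 1864% and 1109% of its depleted signal in mice 7, 10 and 9, and mmu-miR-194-5p was 262%, 899% and 316%. After vsn the difference was 2.15 (SE 0.33, adjusted p = 5.88e-06) for mmu-miR-192-5p and 0.54 (SE 0.37, adjusted p = 0.198) for mmu-miR-194-5p, with an interval of -0.24 to 1.31. In this fit mmu-miR-192-5p was called higher, which is 1 of 2 5p members, against 69.1% of all tested miRNAs called in either direction. mmu-miR-192-3p was detected in neither group and was not compared. The direction rested on the scaling. mmu-miR-192-5p ran from -1.32 to 4.15 and mmu-miR-194-5p from -2.84 to 2.54 over the 10 scalings, and without mouse 10 mmu-miR-194-5p was at -0.24.

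Incubation of depleted RNA at 0 U, followed by purification without DNase, was compared with untreated depleted RNA. mmu-miR-192-5p was 90.3%, 115% and 106% of its untreated signal in mice 7, 10 and 9, and mmu-miR-194-5p was 80.5%, 128% and 105%. The glog2 differences were 0.34 (95% confidence interval -0.36 to 1.03) and 0.33 (-0.45 to 1.10). Neither was called, against 1.43% of all tested miRNAs.

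RNase treatment asked whether fragments of longer RNA give signal on the probes of the family. Relative to 0 U in the same mouse, mmu-miR-192-5p was 140%, 126% and 122% at 0.026 U and 134%, 130% and 139% at 0.67 U in mice 7, 10 and 9, without normalization between arrays. mmu-miR-194-5p was 145%, 91.0% and 117% at 0.026 U and 140%, 114% and 135% at 0.67 U. Thus 11 of these 12 values were above the 0 U signal of the same mouse. On this scale the log2 change over both doses was 0.40 (adjusted p = 0.328) for mmu-miR-192-5p and 0.29 (adjusted p = 0.599) for mmu-miR-194-5p in limma, and the median of all tested miRNAs was 0.35. mmu-miR-192-3p stayed undetected at both doses.

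After vsn the mean of both doses differed from 0 U by 0.13 (SE 0.29, 95% confidence interval -0.47 to 0.73) for mmu-miR-192-5p and by 0.03 (SE 0.32, -0.64 to 0.69) for mmu-miR-194-5p. Of the 5p members 0 of 2 were called, against 44.5% of all tested miRNAs, of which all 281 called were higher. At 0.026 U 0 of 2 were called, against 36.9% of all tested miRNAs, and at 0.67 U 0 of 2, against 45.2%. The doses were also compared with each other, where 0 of 2 and 0% of all tested miRNAs were called. At an unadjusted p under 0.05 that comparison held 9 miRNAs and no member.

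The RNase result also turned with the scaling. Where arrays were scaled to the 75th percentile of the miRNAs detected on all arrays, mmu-miR-192-5p was called lower at -1.20 (adjusted p = 0.00774) and mmu-miR-194-5p at -1.31 (adjusted p = 0.00246), with 54% of all tested miRNAs called in either direction. With spike-in scaling the changes were 0.40 and 0.30. The median change of all tested miRNAs ran from -0.61 to 0.68. For mouse 9, the array with RIN 2.4 had 349 detected miRNAs and the array with RIN 6.0 had 408, whereas in mice 7 and 10 the 0.67 U array had more than the 0.026 U array. The mean over both doses does not depend on which label of mouse 9 is right.

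**Figure D3:**
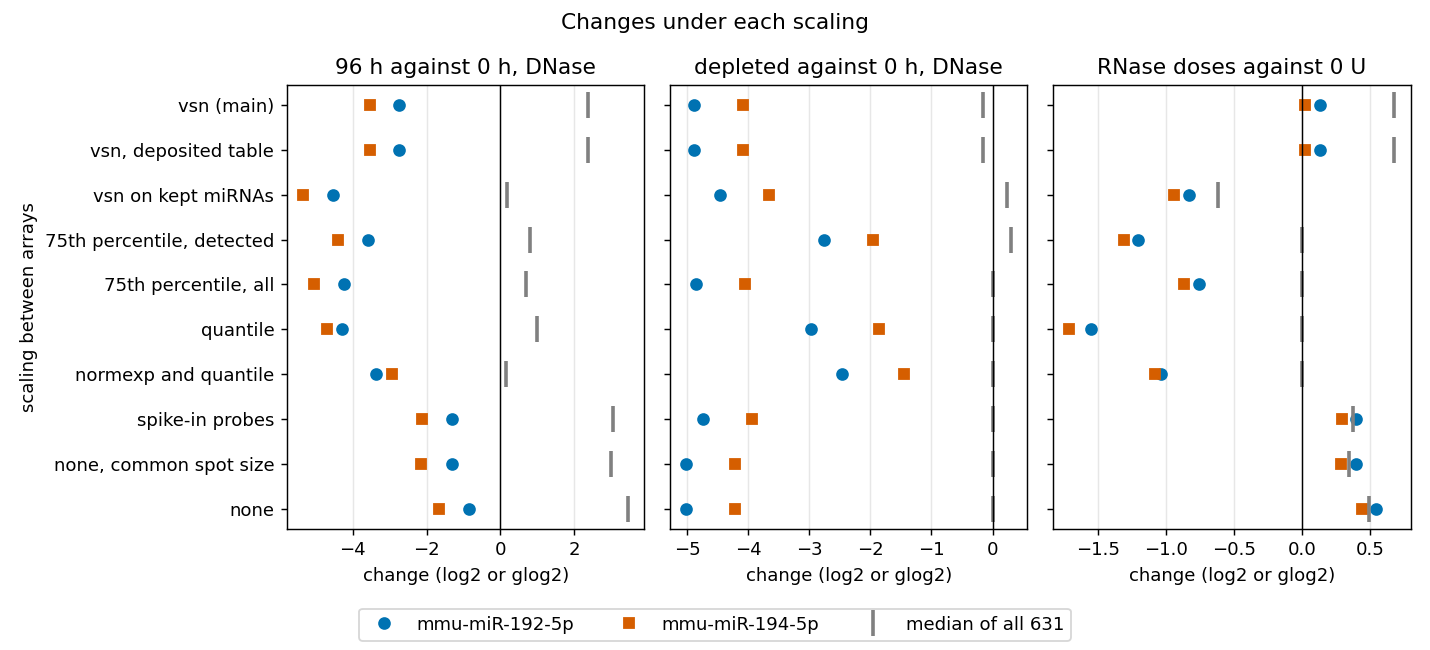
Changes of mmu-miR-192-5p and mmu-miR-194-5p (horizontal axes, log2 or glog2 units) under 10 ways of scaling the arrays (vertical axis), with the median of all 631 tested miRNAs as a grey bar, for storage, depletion and RNase. Storage and depletion kept a negative sign under each scaling, and the RNase change ran from -1.55 to 0.55 for mmu-miR-192-5p and from -1.71 to 0.44 for mmu-miR-194-5p.

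A ratio of signals within an array does not depend on the scaling between arrays, so it was used to ask whether mmu-miR-192-5p and mmu-miR-194-5p changed alike. It shows unequal change and no relative abundance, since the probes differ. In fresh RNA the ratio of mmu-miR-192-5p to mmu-miR-194-5p was narrow, at 2.30, 2.16 and 2.31 with DNase in mice 7, 10 and 9 and 2.15, 2.24 and 2.45 without.

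After 96 h the ratio split by mouse. It was 5.07 and 4.86 with DNase in mice 7 and 9, and 4.05 and 4.24 without. In mouse 10 it was 2.56 and 2.19, close to or within the fresh range. Over all 3 mice the log2 ratio was higher by 0.69 at 96 h than at 0 h, with differences of 1.03, 0.10 and 0.93 in mice 7, 10 and 9. A two-sided exact permutation test that exchanged the 12 arrays within mice gave p = 0.0185 (Benjamini-Hochberg adjusted p = 0.0185 over 2 ratio tests). It takes 2 arrays for each mouse and time as units, so this p measures spread between arrays within mice and not between mice. Without mouse 10 the difference was 0.98, and with 2 mice the smallest p that this test allows is 0.0556. The 96 h DNase-treated array of mouse 10 had a RIN of 2.3, as had that of mouse 7, and the fewest detected miRNAs of the 3, at 582 against 639 and 707. Without DNase it had a RIN of 2.5 and the most detected miRNAs, at 651 against 620 and 599. Their part in the ratio was not tested.

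In depleted RNA the ratio moved the other way in each mouse. It was 1.28, 1.24 and 1.38 untreated and 1.44, 1.11 and 1.39 at 0 U in mice 7, 10 and 9. The log2 ratio of these 6 arrays was lower than that of the 6 fresh arrays by 0.71, 0.91 and 0.78 in the 3 mice, with a mean difference of -0.80. The exact permutation test within mice gave p = 0.00926, the smallest it can give with 216 arrangements (adjusted p = 0.0185 over 2 tests). The untreated and 0 U arrays of a mouse came from 1 isolation, so this test counts aliquots as separate units. Its p does not measure spread between mice. With RNase the ratio was 1.39, 1.54 and 1.45 at 0.026 U and 1.37, 1.27 and 1.43 at 0.67 U, all below the fresh arrays.

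**Figure D4:**
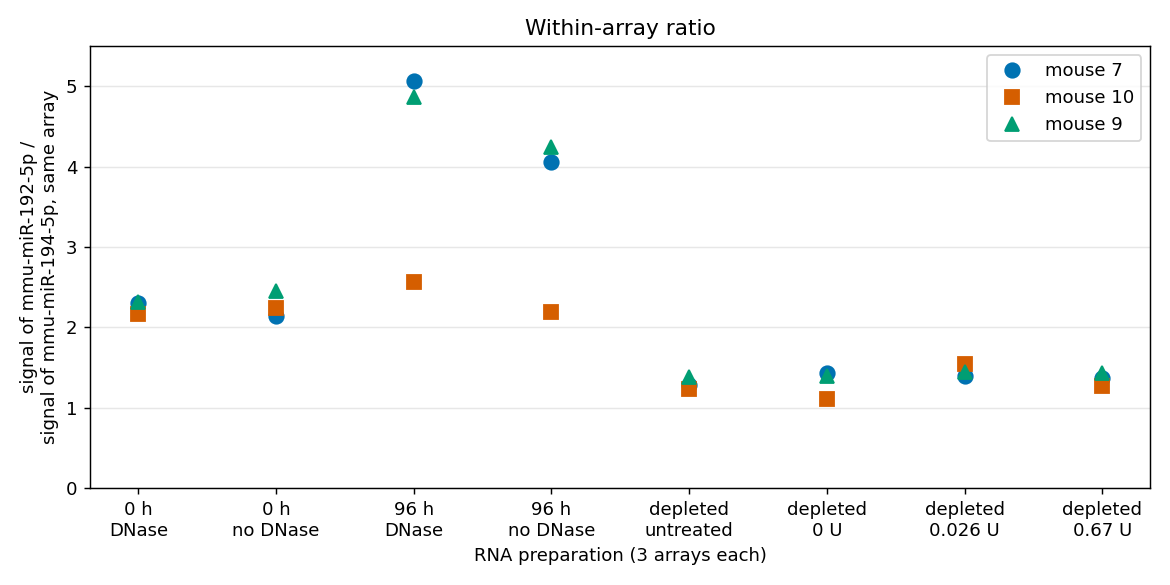
Ratio of the signal of mmu-miR-192-5p to that of mmu-miR-194-5p on the same array (vertical axis, linear from 0) in each RNA preparation, with a symbol for each mouse. The 6 fresh arrays lay between 2.15 and 2.45, the 96 h arrays of mice 7 and 9 between 4.05 and 5.07, those of mouse 10 at 2.19 and 2.56, and the 12 depleted arrays between 1.11 and 1.54.

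Both probes of each 5p member gave the same picture. With DNase, storage changed mmu-miR-192-5p by -2.71 and -2.75 by its probes taken singly, and mmu-miR-194-5p by -3.52 and -3.54. For depletion the values were -4.91 and -4.80 for mmu-miR-192-5p and -4.02 and -4.01 for mmu-miR-194-5p. The median coefficient of variation between the 15 spots of a probe over the 24 arrays was 7.25% and 7.44% for mmu-miR-192-5p and 5.95% and 7.61% for mmu-miR-194-5p.

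A list of 8 other miRNAs abundant in liver was set beside the family. It holds miR-122-5p, the leading hepatocyte miRNA, with miR-148a-3p, miR-101a-3p, miR-22-3p, miR-30a-5p, miR-26a-5p, miR-21a-5p and let-7a-5p. After storage with DNase 8 of 8 were called lower, against 21.6% of all tested miRNAs. Their median change was -2.74 against 2.36 over all tested miRNAs, with a range of -4.77 (let-7a-5p) to -2.32 (miR-101a-3p). The change of mmu-miR-192-5p, -2.74, was thus near this median, and that of mmu-miR-194-5p, -3.54, within the range. On depletion 7 of 8 were called lower, against 24.4%, with a median of -3.19 and a range of -6.98 (miR-21a-5p) to -1.56 (let-7a-5p, adjusted p = 0.0541). With RNase at both doses 0 of 8 were called, against 44.5% called in either direction, with a median of 0.07 against 0.68 over all tested miRNAs.

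The other miRNAs known to be induced by p53 were given by a list of 6, of which 4 were tested. miR-143-3p was detected on 9 arrays, among them the 3 fresh DNase-treated ones, and on no untreated or 0 U depleted array. It may have passed the filter only with the fresh arrays, so its lower calls are not counted. After storage with DNase miR-34a-5p and miR-107-3p were called lower, against 21.6% of all tested miRNAs. There miR-145a-5p was at -0.24 (adjusted p = 0.645). Without DNase miR-34a-5p, miR-107-3p and miR-145a-5p were called lower, at -2.68, -3.48 and -2.62, against 23.1%. On depletion miR-34a-5p and miR-107-3p were called lower, against 24.4%, and miR-145a-5p was at -1.02 (adjusted p = 0.120). With miR-143-3p included, the median of the 4 was -3.24 for storage with DNase, -3.08 without and -2.21 for depletion. miR-34b-5p and miR-34c-5p were detected on 0 arrays.

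Markers of the other cell types of liver moved with storage too. With DNase miR-451a (erythroid), miR-223-3p (leukocyte), both endothelial and both hepatocyte markers were called lower, against 21.6% of all tested miRNAs. miR-144-3p (erythroid), miR-142a-3p and miR-142a-5p (leukocyte) and miR-200a-3p and miR-200b-3p (biliary) were detected on 7, 8, 5, 6 and 6 arrays. They passed the filter only with the fresh arrays, so their lower calls are not counted. miR-150-5p, miR-200c-3p, miR-141-3p and miR-429-3p did not pass the filter. The remaining erythroid marker, miR-486a-5p, had a signal of 4.21 ± 1.93 at 0 h and 22.8 ± 1.12 at 96 h with DNase (SD, n = 3), a glog2 change of 0.96 (adjusted p = 0.0131) that was under the required 1. Without DNase it was called higher, at 1.28 (adjusted p = 0.00166). The summed signal of the 2 hepatocyte markers was 6820 to 12216 intensity units on the fresh DNase-treated arrays and 2151 to 4347 at 96 h, and that of the 2 endothelial markers 289 to 498 and 40.2 to 91.6. That of the 3 erythroid markers was 224 to 429 and 129 to 168, that of the 4 leukocyte markers 45.0 to 119 and 8.77 to 19.0, and that of the 5 biliary markers 7.79 to 11.1 and 1.24 to 4.36. The summed signal of the 4 muscle and brain markers with DNase was 0.762 to 1.19 in fresh RNA and 7.16 to 10.0 at 96 h. Of these, miR-133a-3p was detected on 6 arrays, all at 96 h, so its test is not used. miR-1a-3p, miR-124-3p and miR-9-5p were detected on 0 arrays. The part of other cell types in the change of the family was not tested.

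The miRNAs whose glog2 values over the 24 arrays were most like those of mmu-miR-192-5p were miR-30e-5p (Pearson r = 0.992), miR-451a (0.991), miR-193a-3p (0.987), miR-15a-5p (0.985) and miR-30b-5p (0.978). For mmu-miR-194-5p they were miR-122-3p, the passenger arm of the hepatocyte miRNA (0.990), miR-16-5p (0.985) and miR-27b-3p (0.985). Between mmu-miR-192-5p and mmu-miR-194-5p r was 0.948, and 20 non-members were closer to mmu-miR-192-5p than mmu-miR-194-5p was. mmu-miR-192-3p stood at 0.629 with mmu-miR-192-5p and 0.813 with mmu-miR-194-5p. These correlations describe 24 arrays that share 3 mice and 8 preparations. For miR-451a, an erythroid miRNA, the change was -2.61 with storage and -5.59 on depletion, and for miR-30e-5p it was -2.86 and -5.05. For miR-122-3p it was -4.07 and -4.72, which puts storage and depletion closer together, as for mmu-miR-194-5p.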

How the data were processed

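The authors labelled RNA with Cyanine 3, hybridized it to 1-colour Agilent mouse miRNA arrays (release 21.0) and processed the scans with Feature Extraction 10.10.1.1. The scanner files they deposited give fluorescence intensity after background subtraction, with no normalization across arrays, and flag each miRNA as detected or not. The deposited table holds values on a log2 scale (glog2) that the authors made by vsn.

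Groups came from the labels. As signal, the total gene signal was taken for a detected miRNA and the sum over its probes for any other. vsn was rewritten in Python 3.11.15 (numpy 2.4.6, pandas 2.3.3, scipy 1.17.1) as a least trimmed squares fit of 7 rounds over 5 slices that kept 90% of miRNAs. Its values differed from the deposited table by 0.000857 (SD), and on simulated data each array's scale was returned within 0.0205 on the log2 scale. Fewer miRNAs were changed there than were called for storage with DNase (377 higher, 136 lower), so recovery under such a shift was not tested. The median storage change with DNase was 2.36, and 0.17 with vsn fitted to tested miRNAs. miRNAs detected on at least 5 of 24 arrays were tested (631 of 1881), and 1002 were detected on no array.

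A limma 3.58.1 fit (R 4.3.3) held 8 group means with a variance trend and no mouse term, two-sided, for 12 comparisons, each adjusted over 631 miRNAs. mmu-miR-192-3p, which passed the filter through fresh RNA alone, was in the fit, but its tests between fresh and other RNA are not used. On simulated data for storage with DNase the fit recovered 174 of 200 changed miRNAs (87%) at a change of 2, with 8 false calls. That simulation had as many rises as falls and no normalization step. Numbers pair arrays of 1 animal, and deviations from group means correlated at 0.0924 on average within mice and -0.0453 between mice. The alternatives were 9 other scalings, 2 filters, the replicate block, only the groups compared, the rank test of the methods, each probe singly, leaving out each mouse, and for mouse 9 the title labels. Normexp used the median spot signal with an offset of 50. Spike-in scaling used 8 of 12 spike-in probes, and it and the common spot size were chosen after seeing the data. Precision is limited by 3 arrays a group.

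Members and lists were chosen with earlier results of these data known. The miRNAs named were the members, the fixed lists, the 5 most correlated with mmu-miR-192-5p and the 3 most correlated with mmu-miR-194-5p. Sequences and hairpin positions are from RefSeq on GRCm38.p6, while the array design refers to mm9, of which no coordinates are used. Figures were drawn with matplotlib 3.10.9.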

Additional observations from a re-analysis of the deposited data

How the results depend on the processing

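The sign of the change of both 5p members with storage and depletion was the same under the 20 alternatives, and the replicate block for the mouse left each value as it was (-2.74 for mmu-miR-192-5p and -3.54 for mmu-miR-194-5p with storage and DNase) and changed no call of either. The rank test could call no miRNA for storage with and without DNase or for depletion, since its smallest two-sided p with 3 arrays against 3 is 0.1. Its changes are those of vsn, -2.74 and -3.54 with DNase, -2.73 and -3.28 without and -4.89 and -4.08 on depletion for mmu-miR-192-5p and mmu-miR-194-5p. Without normalization mmu-miR-192-5p fell under the required change of 1, at -0.86 for storage with DNase and -0.99 without. mmu-miR-194-5p was at -1.68 and -1.55 there.

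For 96 h against depleted RNA, 2 of 2 5p members were called lower with quantile normalization (78.1% of all tested miRNAs called in either direction). Both were called higher with no normalization (88.9%), spike-in scaling (81.6%) and a common spot size (83.7%). mmu-miR-192-3p, detected in neither group, is left out of these counts. The rank test could call no miRNA here either (2.15 for mmu-miR-192-5p). mmu-miR-192-5p was at -0.82 with the 75th percentile of detected miRNAs, 0.60 with that of all, -1.32 with quantile normalization, -0.074 with vsn fitted to tested miRNAs and -0.91 with normexp. In the same order mmu-miR-194-5p was at -2.43, -1.01, -2.84, -1.69 and -1.49, and it was called higher at 2.54 with no normalization, 1.81 with spike-in scaling and 2.07 at a common spot size. Leaving out 1 mouse gave it -0.24 to 0.94.

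For RNase at both doses, 2 of 2 5p members were called lower with the 75th percentile of detected miRNAs, quantile normalization and normexp, where 54%, 55.6% and 9.98% of all tested miRNAs were called in either direction. At 0.026 U the first 2 of these called 2 of 2 5p members, against 43.6% and 41.5%. At 0.67 U each of the 3 called 2 of 2, against 55.3%, 57.7% and 11.6%, and vsn fitted to tested miRNAs called 1 of 2, against 66.9%. mmu-miR-192-3p, detected on no depleted array, is left out of these counts. In the order 75th percentile of detected miRNAs, of all miRNAs, quantile, vsn fitted to tested miRNAs and normexp, the change at both doses was -1.20, -0.76, -1.55, -0.83 and -1.03 for mmu-miR-192-5p and -1.31, -0.86, -1.71, -0.94 and -1.08 for mmu-miR-194-5p. Leaving out 1 mouse gave mmu-miR-194-5p -0.17 to 0.18 there, and mmu-miR-192-5p -0.11 to 0.67 for DNase omission at 96 h. With spike-in scaling the change at 0 U was -0.094 and -0.10 for the 5p members. The cause of these shifts was not tested.

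The ratio of mmu-miR-192-5p to mmu-miR-194-5p differed by 0.52 to 0.98 with storage and by -0.84 to -0.75 with depletion when 1 mouse was left out, where the exact test cannot reach 0.05. Signals near the lowest detected ones limit mmu-miR-192-3p and mmu-miR-194-2-3p to bounds.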

Other observations

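The spot size that the scanner software multiplied into the total signals was the default of 0.6 on 16 arrays and a measured 0.789 to 0.849 on 8. The measured arrays were the 6 at 96 h, the 0.67 U array of mouse 10 and the array of mouse 9 grouped at 0.026 U. As deposited, mmu-miR-192-5p was at 420 to 449 intensity units at 96 h with DNase, and at a common spot size at 304 to 319. As deposited, mmu-miR-194-5p was at 84.9 to 175 and at a common spot size at 60.1 to 124.

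Both probes of mmu-miR-192-3p bore on it unequally, since 1 had all 15 spots well above background on 6 arrays and the other on 0.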
